A study of Mus musculus with 1536 samples.

Results

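Connexins are the proteins of gap junctions, and 4 connexin genes named for lymphatic vessels and valves (*Gja1*, *Gja4*, *Gja5* and *Gjc1*) were looked up by symbol among 23168 genes measured in single lymphatic endothelial cells (LECs). Rows for 3 of the 4 (*Gja1*, *Gja4* and *Gjc1*) were analysed over all cells of the matrix, about 840, and *Gja5* was not analysed here. Cell numbers of 100 or more are given to the nearest 10 throughout, and percentages are computed from the exact numbers. The cells came from the nasopharyngeal mucosa of 30 mice of both sexes, labelled as strain c57bl/6, aged 10–12 weeks and untreated as far as the labels and methods state, whose tissue was pooled before sorting. CD31+PDPN+ cells were sorted into plates, 1 per well, and made into Smart-seq3 libraries, in which reads fall along the whole transcript. Neither mouse nor plate is given for a cell, so the cells are 1 sample, cells are not replicates and no p-value was computed. Intervals below are exact (Clopper–Pearson) 95% intervals over cells, which cover counting error only, and standard deviations (SD) describe the spread of these cells.

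A connexin crosses the membrane several times, and a ring of them forms a hemichannel that docks with one in the neighbouring cell, so that ions and small molecules pass between both cells. Members of the family can mix in one hemichannel. In lymphatic vessels, connexin 43 (the product of *Gja1*) and connexin 37 (*Gja4*) are known from the endothelium, and both are required for lymphatic valves to form. Connexin 45 (*Gjc1*) is best known from lymphatic muscle, where it couples the pacemaking of contracting vessels, and it is also made by endothelial cells.

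Depth ranged from 7433 to 3524358 reads in a cell (median 350746), so whether a gene was found, with at least 1 read, depends on depth. Comparisons across cells were therefore also made after drawing the same number of reads from each cell, either 20000 (about 790 cells) or 100000 (about 620 cells), with shallower cells left out. At least 3 of the 5 LEC markers (*Prox1*, *Pdpn*, *Flt4*, *Cdh5* and *Pecam1*) were found in every cell. No cell had 3 or more markers of mural, epithelial, immune or Schwann cells, and 1 cell had 3 or more of fibroblasts. At least 3 of 5 markers listed for blood endothelium (*Flt1*, *Plvap*, *Emcn*, *Cd34* and *Ptprb*) were found in 75.8% of the cells, in 79.1% of those with *Gja4* and in 72.4% of those without it, all of which carried the LEC markers. Reads of both *Xist* and a Y-linked gene, which a single mouse cell should not give, were found in 52 wells. No doublet caller was run.

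*Gja1* (ENSMUSG00000050953.10, chr10:56377330-56402513, plus strand, on GRCm38) has 8 transcripts in GENCODE M21. *Gja4* (ENSMUSG00000050234.7, chr4:127311421-127314039, minus strand) has 1 transcript of 1685 bases. *Gjc1* (ENSMUSG00000034520.14, chr11:102799579-102819700, minus strand) has 5. No exon of these genes overlaps an exon of another gene in that annotation. RefSeq entries for the promoter were matched for *Gja1* and *Gja4* and not for *Gjc1*. The 250 bases before the start of each are shown because these members ran against each other across the cells described below. Capitals mark a match, on either strand, to 1 of 5 motifs searched, and no matches overlapped.
Gja1, chr10:56377050-56377299, plus strand, GRCm38.p6: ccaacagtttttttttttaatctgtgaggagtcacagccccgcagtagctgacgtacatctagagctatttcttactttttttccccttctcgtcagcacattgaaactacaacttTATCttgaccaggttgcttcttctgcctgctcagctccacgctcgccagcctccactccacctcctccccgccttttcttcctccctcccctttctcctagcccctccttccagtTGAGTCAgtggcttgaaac
Gja4, chr4:127314040-127314289, minus strand, GRCm38.p6: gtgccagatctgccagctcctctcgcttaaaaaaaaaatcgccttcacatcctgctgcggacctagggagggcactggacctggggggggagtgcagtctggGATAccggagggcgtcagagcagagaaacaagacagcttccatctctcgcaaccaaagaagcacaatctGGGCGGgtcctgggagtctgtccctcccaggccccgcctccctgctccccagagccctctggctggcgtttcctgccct
The *Gja1* stretch held a GATA match, on the opposite strand, at bases −134 to −131 from the start. It also held a match to the AP-1 motif, searched as TGANTCA, at −19 to −13. The *Gja4* stretch held a GATA match at −148 to −145 and a GC box, searched as GGGCGG, at −79 to −74. Neither held CACCC, a motif of the KLF family, or the forkhead motif searched as TGTTTAC. Of 32851 mouse promoters of the same length, 53.6% held GATA, 6.75% the AP-1 motif, 32.7% the GC box, 52% the KLF motif and 3.17% the forkhead motif. A match describes these letters and is not a binding site.

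*Gja1* was close to universal in these LECs, *Gja4* was found in about every other cell, and *Gjc1* in about 1 of 5. Reads fall along the whole transcript, so a longer transcript is found more readily, and these shares do not rank the genes by level. The deposited values, the natural log (ln) of 1 plus reads per 10000, ran for *Gja1* from 0 over a median of 1.76 to 3.74, with a mean of 1.67 ± 0.846 (SD over all cells). *Gja1* was found in 96.7% of the cells (interval 95.2–97.8%), with a median ln value of 1.80 where found. *Gja4* ran from 0 over a median of 0.011 to 3.87, the highest value of the 3 genes, with a mean of 0.592 ± 0.866. It was found in 50.5% of the cells (47–53.9%), with a median ln value of 1.17 where found. Its low mean thus came from cells without it and not from an even low level. *Gjc1* ran from 0 over a median of 0 to 2.45, with a mean of 0.108 ± 0.289, and was found in 21.1% of the cells (18.4–24.1%), with a median ln value of 0.449 where found.

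Depth changed these shares and kept their order. After drawing 20000 reads, *Gja1* was found in 89.3% (86.9–91.3%) of the cells, *Gja4* in 37.8% (34.4–41.3%) and *Gjc1* in 13% (10.8–15.6%). The intervals of the 3 genes did not overlap. In the 280 or so deepest cells (701191 or more reads), *Gja1* was found in all, *Gja4* in 60.5% (54.5–66.3%) and *Gjc1* in 29.2% (23.9–34.9%). No more than 2 reads were seen in 97 of the 430 or so cells with *Gja4* and in 41 of the 180 or so with *Gjc1*.

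**Figure D1:**
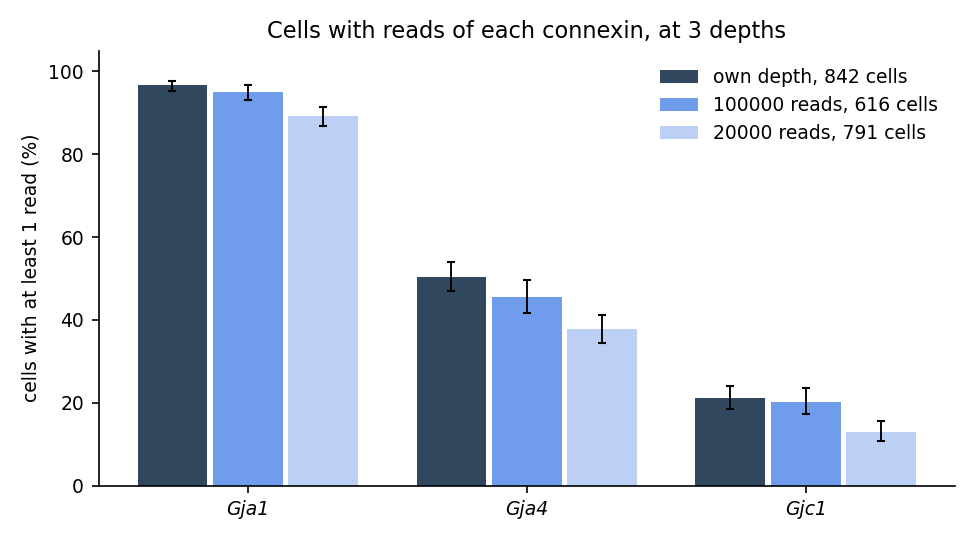
Share of cells (y axis, %) with at least 1 read of *Gja1*, *Gja4* and *Gjc1* at each cell's own depth and after drawing 100000 or 20000 reads per cell. Bars carry exact 95% intervals over cells, and *Gja1* is highest, *Gja4* next, and *Gjc1* lowest at all 3 depths.

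A few other connexin and pannexin genes were measured, and those given here were close to 0. *Panx1*, the pannexin of ATP release channels, was found in 12 cells, *Gja6* in 7, *Gjd3* in 6, *Gjb2* in 4 and *Gjc3* in 3. *Gjb1*, the connexin of hepatocytes and Schwann cells, had no read in any cell, for which a floor of 3 counts allows reads in up to 0.356% of the cells and sets no limit on cells that express it.

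Levels of different genes can be compared only per length of transcript. Over all exons of each gene, the mean level was 1.19 ± 2.67 reads per 10000 per kilobase for *Gja4*, 0.613 ± 0.567 for *Gja1* and 0.0368 ± 0.133 for *Gjc1* (SD over all cells). The place of *Gja1* and *Gja4* turned with the length used. All exons of *Gja1* cover 10257 bases, but its longest single transcript has 3889, and with that length *Gja1* reached 1.62 and lay above *Gja4* at 1.19. By either length both differed by less than the SD of *Gja4*, and *Gjc1* was the lowest of the 3.

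The members were read together in each cell, first at its own depth. *Gja1* alone was found in 38.7% of the cells (35.4–42.1%), *Gja1* with *Gja4* in 36.9% (33.7–40.3%), all 3 members in 11.6% (98 cells) and *Gja1* with *Gjc1* in 9.38% (79 cells). *Gja4* alone was found in 15 cells, *Gja4* with *Gjc1* in 1 and no member in 12. Cells with *Gjc1* carried *Gja1* too with 1 exception (99.4%), close to the 96.7% of all cells that had *Gja1*. After drawing 20000 reads, both *Gja1* and *Gja4* were found in 32.4% of the cells, 0.959 times the product of their shares (0.863–1.06). Both *Gja1* and *Gjc1* were found in 99 cells, 1.08 times the product (0.885–1.29). Both *Gja4* and *Gjc1* were found in 33 cells, 0.848 times the product (0.587–1.18). Each interval is that of the share of cells with both, divided by a product taken as fixed. All 3 held a ratio of 1. *Gja1* was found nearly everywhere, so the ratios of its pairs could hardly leave 1, and nothing is concluded from their intervals. The cells without *Gja1* were therefore also read.

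Of 85 cells without *Gja1* at 20000 reads, 43 had *Gja4* (50.6%, 39.5–61.6%), against 36.3% (32.7–39.9%) of the cells with *Gja1*. These intervals overlapped. At own depth the shares were 57.1% (37.2–75.5%) of 28 cells and 50.2% (46.8–53.7%). At 20000 reads the mean level of *Gja4* was 4.43 reads per 10000 without *Gja1* and 1.75 with it. This is a log2 ratio of −1.32 for cells with *Gja1* to cells without it (each mean plus 0.05 reads per 10000). The cells without *Gja1* include cells of a small cluster described below (cluster 7). *Gja1* was found there in 9 of 25 cells, and the mean of *Gja4* was 8.22. A log2 ratio of 1 in size, called the fold below, was reached by 5.48% of the 9639 other genes compared, each with reads in 5% of the cells or more. *Gjc1* went the other way, with 0.201 reads per 10000 beside *Gja1* and 0.0353 without it, a log2 ratio of 1.56, but its value without *Gja1* rests on 4 cells.

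Across cells, *Gja1* and *Gja4* ran against each other. Spearman's rho between their reads was −0.173 over about 790 cells at 20000 reads each, −0.130 over about 620 cells at 100000, and −0.123 between the deposited values of all 840 or so cells. These cells share 1 pool of mice and a fixed total of reads, and the values are a description. Ranked from the lowest rho with *Gja1*, *Gja4* was the first of 7713 genes with reads in 10% of the cells or more at 20000 reads and number 9 of 9106 at 100000. Ranked in the same way from *Gja4*, *Gja1* was number 5 and number 65. The rho was negative within each tertile of the cells by their dissociation genes (−0.133, −0.190 and −0.169) and within each of the 5 clusters described below (−0.0162 to −0.235). At a finer clustering it was above 0 in 1 of 7 clusters (0.0264). Without the smallest of those 7 clusters it was −0.136.

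The 5 genes most like *Gja1* by the same measure were *Nrp2*, *Rnd1*, *Plvap*, *Map4k4* and *Prss23* (rho 0.219 to 0.180 over about 790 cells). *Nrp2*, a co-receptor for VEGF-C, led the list at 100000 reads too (0.241). For *Gja4* they were *Palm*, *Txnip*, *Xist*, *Tsc22d1* and *Tpcn1* (0.233 to 0.199). For *Gjc1* they were *Azi2*, *Spata6*, *Dst*, *Map4k5* and *Ppp1cc* (0.141 to 0.130), which in counts this sparse is no finding.

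**Figure D2:**
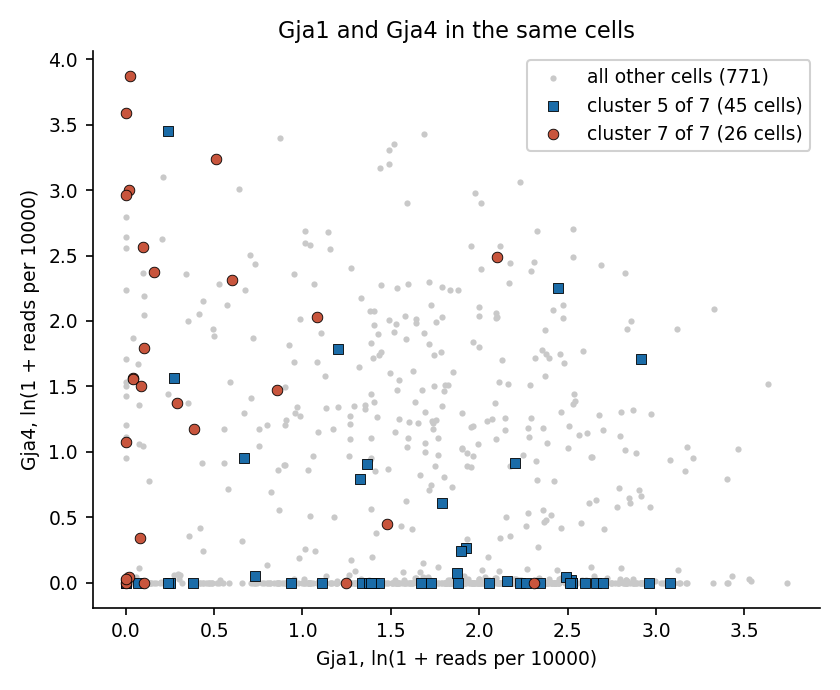
Deposited values of *Gja1* (x axis) and *Gja4* (y axis), each the natural log of 1 plus reads per 10000, for all cells (points). Cluster 7 of the finer clustering (circles, 26 cells) lies mostly at low *Gja1* and high *Gja4*, and cluster 5 (squares, 45 cells) mostly along the *Gja1* axis.

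The balance between both genes was read in each cell as the *Gja4* part, the share of *Gja4* in the sum of *Gja1* and *Gja4* reads, each divided by the length of its longest transcript. It was computed for the 680 or so cells with at least 20 reads of the pair. It ran from 0% over a median of 1.0% to 100%, and most cells sat near an end of the scale. In 61.7% of them (about 420) the part was 20% or less, in 96 cells (14.2%, 11.7–17.1%) it was 80% or more, and about 160 lay between. *Gja4* had no read in about 300 of these cells and *Gja1* had none in 10. With at least 100 reads of the pair the share of cells at 80% or more was 14.1%, and with all exons as the length of *Gja1* it was 25.1% (170 cells).

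**Figure D3:**
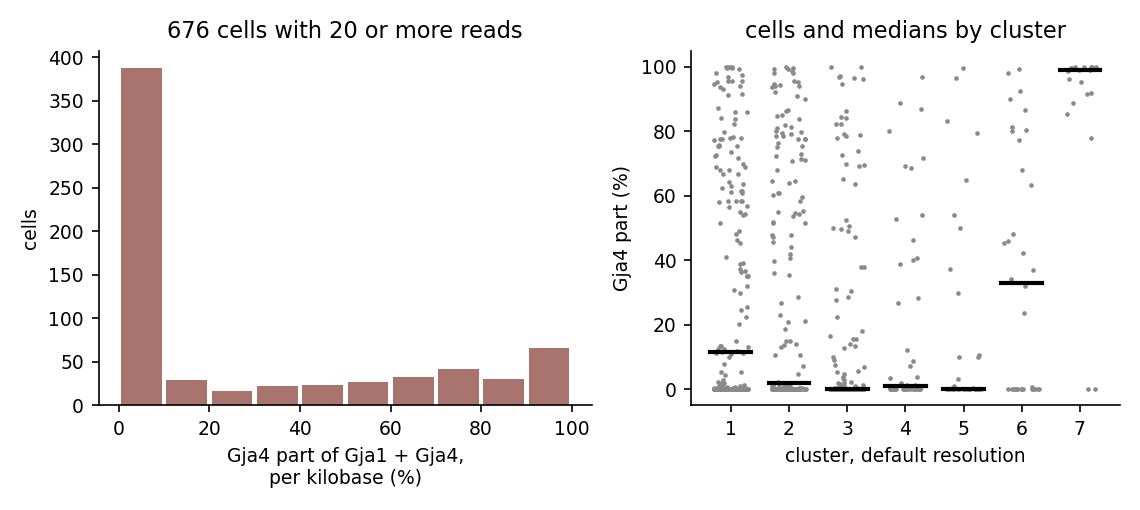
*Gja4* part (%), of *Gja1* plus *Gja4* reads per kilobase of the longest transcript, in cells with at least 20 reads of the pair: cells per step of 10 percentage points (left), and each cell (points) with the median (bars) in the 7 clusters of the finer clustering (right). The lowest step holds about 390 cells and the highest 66, and cluster 7 is the one with a median near 100% (98.9%).

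The cells were grouped to see where each connexin was high, by the clustering steps in the study's methods but without the connexins themselves, of which only *Gja4* was among the 2000 variable genes. At the resolution that gave 5 clusters, *Gja1* had a mean ln value of 2.05 ± 0.791 in the Ptx3+ capillary-like cluster (about 130 cells). It had 1.73 ± 0.777 and 1.57 ± 0.813 in the smaller and larger Ptx3− capillary-like clusters (49 and about 310 cells), 1.67 ± 0.878 in the valve-like cluster (44 cells) and 1.58 ± 0.864 in the precollecting-like cluster (about 300 cells). The 5 means differed by less than 1 SD. *Gja4* took another order, with 0.807 ± 0.964 in the precollecting-like cluster, 0.568 ± 0.849 and 0.436 ± 0.660 in the larger and smaller Ptx3− capillary-like clusters, 0.355 ± 0.742 in the valve-like cluster and 0.296 ± 0.625 in the Ptx3+ capillary-like cluster. These too differed by less than 1 SD, but the shares at 20000 reads stood further apart. *Gja4* was found in 50.3% (44.4–56.3%) of the precollecting-like cells and in 22.2% (15.3–30.5%) of the Ptx3+ capillary-like cells, where *Gja1* was found in 86.7% (82.2–90.4%) and 95.2% (89.9–98.2%). *Gjc1* differed little, from 11.5% to 16.7% of the cells of a cluster, with overlapping intervals. The larger Ptx3− capillary-like cluster was named by *Lyve1*, *Reln* and *Ccl21a*, without *Fndc1* and *Ptn*, which the study used. The precollecting-like cluster was named by *Foxp2*, *Igfbp5* and *Clca3a1*, without *Lyve1*, which the study used beside *Foxp2*. The study found more Ptx3+ than Ptx3− capillary LECs, and the clusters here had the opposite order. These names thus do not stand for the study's clusters.

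At the default resolution of 0.8 the cells fell into 7 clusters, and *Gja1* and *Gja4* were furthest apart in the smallest of them. It was singled out after these values had been seen. Cluster 7 holds 26 cells, all from the precollecting-like cluster of the coarser grouping. *Gja4* ran there from 0 over a median of 1.53 to 3.87 (mean ln value 1.57 ± 1.22), and was found in 22 of the 26 cells. *Gja1* ran from 0 over a median of 0.10 to 2.31 (mean 0.448 ± 0.667), and was found in 21. In the valve-like cluster 5 (45 cells), *Gja4* ran from 0 over a median of 0 to 3.45 (mean 0.348 ± 0.736) and *Gja1* from 0 over a median of 1.79 to 3.08 (mean 1.64 ± 0.901). The ranges of both genes overlapped. The means of both genes differed by more than 1 SD of either cluster for *Gja1*, and by just over 1 SD of cluster 7 for *Gja4*.

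At equal depth these clusters kept their contrast. *Gja1* was found in 9 of 25 cells of cluster 7 (36%, 18–57.5%) and in 39 of 43 cells of cluster 5 (90.7%, 77.9–97.4%), with 0.82 and 5.76 reads per 10000. *Gja4* was found in 18 of 25 (72%, 50.6–87.9%) and in 11 of 43 (25.6%, 13.5–41.2%), with 8.22 and 1.40 reads per 10000. The log2 ratios of cluster 7 to cluster 5 were −2.74 for *Gja1*, 2.52 for *Gja4* and −2.23 for *Gjc1*, which had reads in 1 and 7 cells. All 3 passed the fold, but so did 29.7% of the 9640 genes compared. Of the 21 cells of cluster 7 with 20 or more reads of the pair, 18 had a *Gja4* part of 80% or more (85.7%, 63.7–97%). Of 34 such cells in cluster 5, 3 did (8.82%, 1.86–23.7%).

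Genes of lymphatic valves were raised in both clusters, 3 of them the same (*Cldn11*, *Itga9* and *Lama5*). Cluster 5 took its valve-like name from 5 of 7 markers (*Cldn11*, *Itga9*, *Nfatc1*, *Lama5* and *Neo1*). In cluster 7, 5 of 7 were raised as well (*Cldn11*, *Foxc2*, *Itga9*, *Gata2* and *Lama5*), and 3 of 4 precollecting markers were also raised. The remaining precollecting marker, *Lyve1*, was not. It had 0.16 reads per 10000 in cluster 7 and 2.23 in cluster 5, and the study named precollecting LECs by *Foxp2* and *Lyve1*. Its leading genes were *Clu*, *Adm*, *Nsg1*, *Slc29a4* and *Lypd6*. The first 10 held the precollecting marker *Igfbp5* and no valve marker, so by the naming rule cluster 7 was left without a name. *Gja4* was also among its 10 leading genes. The connexins had been kept out of the clustering, but the cluster was singled out by its *Gja1* and *Gja4* values, so this is no separate support. *Cldn11*, the claudin by which the study named valve cells, had 4.18 reads per 10000 in cluster 7, 5.43 in cluster 5 and 0.991 in all cells outside cluster 7. *Foxc2*, a transcription factor of valve formation, had 0.72 in cluster 7 and 0.093 in cluster 5. *Efnb2*, an ephrin needed for valves, had 2.72 and 0.756. *Neo1* went the other way with 0.04 and 2.21, as did *Celsr1*, a planar polarity cadherin of valve cells, with 0.74 and 1.72. *Klf2*, a factor induced by steady flow, had 8.30 and 2.77. It was the 1 of 8 flow genes past the fold, and the list's median was −0.17 against −0.07 over all genes. Of 11 valve genes compared, which leave out *Neo1*, 2 were higher (*Foxc2* and *Efnb2*) and 2 lower (*Celsr1* and *Vangl2*), with a median of −0.20. Beside both lists, 29.7% of the 9640 genes compared passed the fold between these clusters. The study itself separated downstream from upstream valve LECs by *Gja4* in these cells, so the level of *Gja4* in valve cells is not independent of that division.

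**Figure D4:**
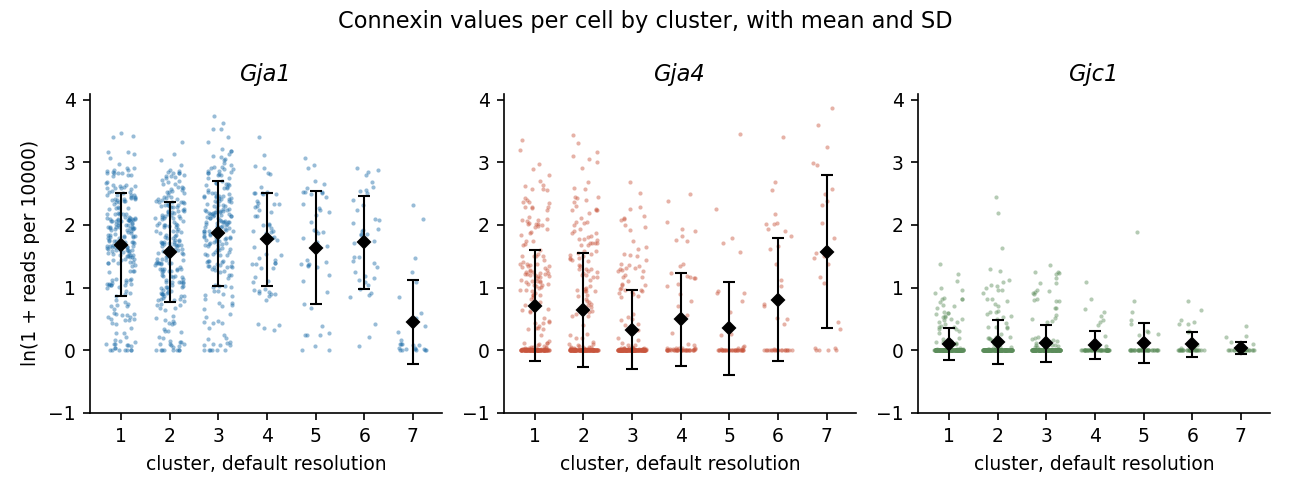
Deposited values of *Gja1*, *Gja4* and *Gjc1* (natural log of 1 plus reads per 10000) in each cell (points), by cluster of the finer clustering. Diamonds are means with SD, and cluster 7 has the lowest mean of *Gja1* (0.448) and the highest of *Gja4* (1.57).

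Other measures were also read in cluster 7, some of which differed little from all cells, and their part in the result was not tested. Of its 26 cells, 13 were in the highest tertile by dissociation genes and 3 in the lowest, and the median depth was 475239 reads. *Xist* alone was found in 4 of the 26 and Y-linked genes alone in 16. Among those 16 cells, *Gja1* had a mean ln value of 0.440 ± 0.698 and *Gja4* of 1.21 ± 1.19. Among the 30 cells of cluster 5 with Y-linked genes alone, the means were 1.74 ± 0.833 and 0.244 ± 0.503. All 5 mural markers (*Acta2*, *Myh11*, *Tagln*, *Rgs5* and *Pdgfrb*) were at 0 in cluster 7. They were rare over all cells too, where *Acta2* was found most, in 2.49%. *Sox17* of arteries was at 0 in clusters 5 and 7. *Bmx* of arteries had reads at 20000 in 5 of 25 cells of cluster 7 and 2 of 43 of cluster 5 (0.22 and 0.0349 reads per 10000, log2 ratio 1.67), and *Flt1* of blood endothelium in 4 and 0 cells. *Gja4* is also a connexin of arteries, and 4 arterial markers were measured, 1 of them *Hey1*, which the Notch list also holds. At least 3 of them were found in 3 of the 26 cells of cluster 7 (11.5%) and in 89 of all cells (10.6%). They were found in 13.2% (10.1–16.8%) of the cells with *Gja4* and in 7.91% (5.51–10.9%) of those without it, and their part in the *Gja4* values was not tested. Their summed level ran in cluster 7 from 0 over a median of 5.0 to 22.7 reads per 10000 and in all cells from 0 over 9.56 to 122.1. In the 96 cells with a *Gja4* part of 80% or more the median was 9.52, and 16 of these cells had 3 or more markers (16.7%, 9.84–25.6%).

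The cells were also split by single genes. At 20000 reads, *Cldn11* was found in about 220 of 790 cells. *Gja4* was found in 97 of them (44.3%, 37.6–51.1%) and in 35.3% (31.4–39.4%) of the cells without *Cldn11*, with 2.10 and 2.01 reads per 10000 and a log2 ratio of 0.06. For *Gja1* the values were 5.13 and 6.74 (log2 ratio −0.39), and for *Gjc1* 0.176 and 0.186 (−0.06). None of the 3 members passed the fold, which 0.84% of 9639 genes did. Most cells with *Cldn11* thus had no *Gja4* read at this depth.

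*Foxc2* was found in about 110 cells. *Gja4* had 3.57 reads per 10000 in these, against 1.80 in the other 690 or so, a log2 ratio of 0.97 that just missed the fold, which 2.33% of genes passed. *Gja1* differed little (5.96 and 6.34, log2 ratio −0.09). The cells were also grouped by the number of valve markers they had, out of 7 that include *Foxc2*. *Gja4* was found in 32.5% (26.7–38.8%) of the 240 or so cells with 0 or 1 valve marker and in 55.8% (45.2–66%) of the 95 cells with 4 or more. *Gja1* was found in 88.1% and 86.3% of the same cells, and *Gjc1* in 11.5% (7.79–16.2%) and 21.1% (13.4–30.6%). In cells with 2 and with 3 markers, *Gja4* was found in 36.2% and 38.1% and *Gjc1* in 13.1% and 10.3%, nearer to the lowest group.

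*Lyve1*, a hyaluronan receptor of capillary LECs, was found in about 470 of 790 cells. *Gja4* had 1.66 reads per 10000 in these and 2.61 in the 320 or so without it, a log2 ratio of −0.64. *Gja1* had 6.14 and 6.52 (−0.08) and *Gjc1* 0.173 and 0.199 (−0.16). None of the 3 members passed the fold, which 1.46% of genes did.

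The genes around the connexins were read from 4 lists, by the same ratio between cells with and without *Gja4* (about 300 and 490), where 0.456% of 9639 genes passed the fold. Of the 12 valve genes, 11 could be compared, 1 passed the fold (*Gata2*) and 10 had a ratio above 0, with a median of 0.19 against −0.01 over all genes. *Gata2*, a zinc finger factor needed for valve development, had 0.839 reads per 10000 beside *Gja4* and 0.394 without it (log2 ratio 1.0). *Foxc2* followed with 0.274 and 0.135 (0.81) and *Cldn11* with 1.38 and 0.915 (0.57), both under the fold. Of 8 genes of the response to flow and shear, none passed (median 0.11). None of 6 compared of 8 Notch genes passed (median −0.28), nor any of 9 compared of 10 partners and regulators of gap junctions (median −0.02). *Cav1*, the main coat protein of caveolae, had 10.7 and 8.13 (0.40), and *Tjp1*, the scaffold ZO-1 that binds the tail of connexin 43, had 1.5 and 1.52 (−0.02).

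Beside *Gja1* (85 cells without it, background 5.48%), 1 of 11 valve genes passed the fold. This was *Cldn11*, lower with *Gja1* (0.929 and 2.44, log2 ratio −1.35), and the list's median was −0.19 against 0.05 over all genes. Of 6 Notch genes 1 passed, *Hey1*, a target of Notch, with 0.67 reads per 10000 beside *Gja1* and 0.153 without it (1.83). No flow gene (median 0.05) and no gap junction partner (median −0.03) passed. Beside *Gjc1* (about 100 cells with it, 1.96% of genes past the fold), *Jag1*, a Notch ligand, was lower (−1.06), and no gene of the other 3 lists passed, with medians of 0.11 for valve genes, 0.07 for flow and 0.02 for partners.

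In cluster 7 against all other cells, 24.5% of 9640 genes passed the fold. Of the 11 valve genes compared, which leave out *Neo1*, 4 were higher (*Cldn11*, *Foxc2*, *Gata2* and *Lama5*) and none lower. Their median was 0.63 against −0.15 over all genes. Of the flow genes, *Nos3*, the endothelial nitric oxide synthase, was higher there (1.94 and 0.761 reads per 10000, log2 ratio 1.29), and *Flt4*, the receptor of VEGF-C, lower (3.94 and 12.5, −1.65). *Jag2* of the Notch list was lower too.

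*Gja4* also differed between cells by their sex chromosome genes, and *Gja1* less so. Only *Xist* was found in about 170 cells, only Y-linked genes in about 480, and neither in about 140 cells, which were shallow (median 87119 reads). The mean ln value of *Gja4* was 0.995 ± 1.04 in cells with *Xist* alone and 0.445 ± 0.753 in cells with Y-linked genes alone. At 20000 reads it was found in 86 of about 160 (54.4%, 46.3–62.4%) and in about 150 of 460 cells (32.8%, 28.6–37.3%). Its level was 3.76 and 1.51 reads per 10000, a log2 ratio of 1.29, where 3.25% of genes passed the fold. *Gja1* was found in 87.3% (81.1–92.1%) and 90.3% (87.2–92.8%), and *Gjc1* in 8.23% (4.45–13.7%) and 14% (11–17.5%).

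The difference in *Gja4* was also seen within clusters. Within the precollecting-like cluster *Gja4* was found in 71.7% (56.5–84%) of the cells with *Xist* alone and 42.9% (35.5–50.6%) of those with Y-linked genes alone. Within the larger Ptx3− capillary-like cluster the shares were 54.7% (41.8–67.2%) and 29.3% (22.6–36.9%), and within the Ptx3+ capillary-like cluster 38.2% (22.2–56.4%) and 20% (11.4–31.3%), where the intervals overlapped. A *Gja4* part of 80% or more was seen in 27.8% (20.6–35.8%) of the cells with *Xist* alone and in 9.37% (6.68–12.7%) of those with Y-linked genes alone. The pool gives no mouse or plate for a cell, so sex, mouse, plate and handling cannot be told apart here.

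**Figure D5:**
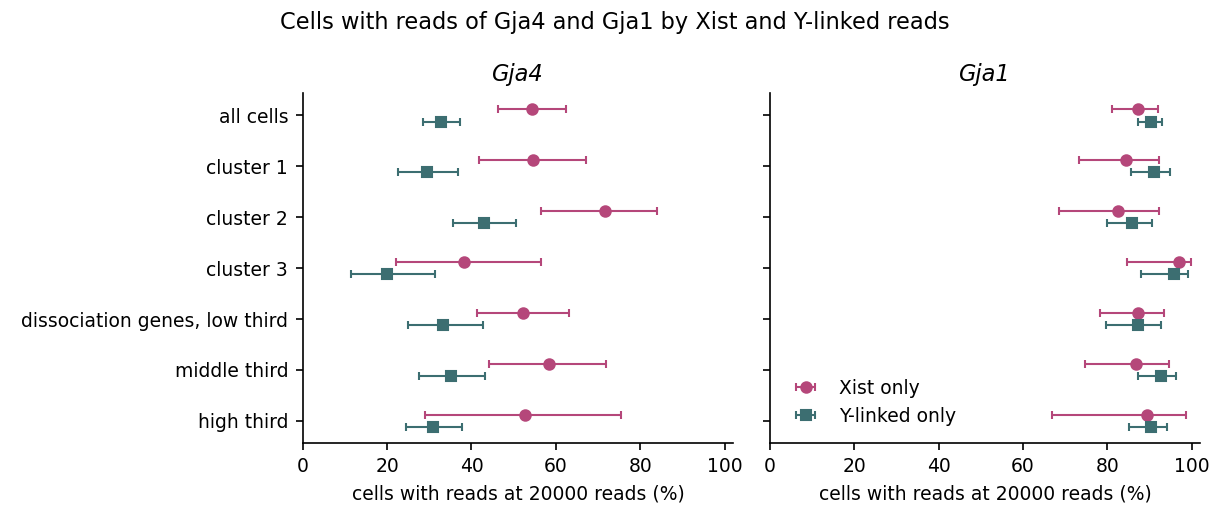
Share of cells (x axis, %) with reads of *Gja4* (left) and *Gja1* (right) after drawing 20000 reads, in cells with *Xist* alone (circles) or Y-linked genes alone (squares), over all cells, in the 3 largest clusters (1, larger Ptx3− capillary-like, 2, precollecting-like, and 3, Ptx3+ capillary-like) and in tertiles by dissociation genes. Bars are exact 95% intervals over cells, and *Gja4* was found in a larger share of the cells with *Xist* alone in every row shown (54.4% and 32.8% over all cells).

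Handling of the tissue can change transcripts before lysis, so the cells were also split into tertiles by the mean of a list of dissociation genes. *Gja4* had a mean ln value of 0.694 ± 0.947 in the lowest tertile, 0.630 ± 0.860 in the middle and 0.453 ± 0.767 in the highest. *Gja1* had 1.53 ± 0.854, 1.72 ± 0.804 and 1.75 ± 0.863. These steps were under 1 SD. Of the cells with *Xist* alone, 94 were in the lowest tertile and 19 in the highest. The share with *Gja4* at 20000 reads was higher with *Xist* alone in each tertile, at 52.3%, 58.5% and 52.6% against 33.3%, 35.1% and 30.8%. In the highest tertile the share with *Xist* alone rests on no more than 19 cells. The part of handling in this difference was not tested.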

How the data were processed

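Per the methods, the authors used STAR on mm10 and featureCounts, kept cells with at least 2000 genes and at most 10% mitochondrial reads, and deposited natural log values. The methods say log2, but only the natural log gave sums of 10000 per cell. Strand and multi-mapping settings are not given in the sources used here. Whole reads came back for 100% of values above 0 (within 0.01 reads). These are reads, not molecules, so intervals and the floor of 3 counts cover counting error only. Gene lengths come from GENCODE M21 and promoters from RefSeq on GRCm38.p6.

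Cells were thinned without replacement. Clustering used Seurat 5.3.0 in R 4.3.3 (2000 vst genes without the connexins, with total reads, mitochondrial share, dissociation and ribosomal scores regressed out, 15 components, Louvain at 0.5 and at the default of 0.8). Cluster names needed at least 3 raised markers of a class (log2 ratio 0.3, found in 30% of the cells), more than of any other class. A name was also withheld where another class had more markers among the 10 leading genes of the cluster. Ratios used mean reads per 10000 plus 0.05. These steps were tested on simulated data. The genes named are the connexins, 4 lists (valve, flow and shear, Notch, gap junction partners), cell type markers, the 5 genes most like each connexin and the leading genes of a cluster. The members and lists were chosen with earlier results of these data known. Some other genes are not reported here. Alternatives changed depth, the reads needed, the length, the pseudocount and the clustering. Other tools were SciPy 1.17.1, pandas 2.3.3, NumPy 2.4.6 and Python 3.11.15.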

Additional observations from a re-analysis of the deposited data

How the results depend on the processing

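The share of cells with *Gja1* was 92.5% counting from 3 reads, 77.8% counting values above 1, 89.3% at 20000 reads and 95.1% at 100000. For *Gja4* the same settings gave 39%, 28.5%, 37.8% and 45.6%, and 54.9% in cells with at least 3000 genes. For *Gjc1* they gave 16.3%, 2.61% and 13%, with 20.3% at 100000 reads. The level of *Gja1* per kilobase was 1.62 reads per 10000 by the longest transcript and 0.613 by all exons. Genes past the fold beside *Cldn11* were 0.84% of those compared, 0.104% with a pseudocount of 0.5, 1.27% with *Cldn11* counted from 3 reads and, over more genes, 0.527% at own depth and 0.665% without the filter on low values. Beside *Lyve1* they were 1.46%, 2.07% at own depth and 0.197% with a pseudocount of 0.5. Chosen after seeing the data, all exons as length gave 25.1% of cells a *Gja4* part of 80% or more. The ratio of cells with both *Gja4* and *Gjc1* to the product of their shares ran from 0.690 (from 3 reads) to 1.10 (own depth), and the log2 ratio of *Gja4* beside *Lyve1* was −0.17 at own depth and −0.64 at 20000 reads. The causes were not tested. No paired analysis was possible because the result comes from no test. No replicate could be left out of 1 pool. Depth limits every share, and a cell without reads of *Gja4* or *Gjc1* is not shown to lack it.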
